A study of Mus musculus with 32 samples.

Results

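Whole brains of newborn mice without a working Dhcr7 gene were compared with those of wild-type newborns by sequencing of messenger RNA. The comparison used 8 of the 32 samples of a study that also collected embryonic brains, namely the 4 knockout (KO, Dhcr7-/-) and the 4 wild-type (WT, Dhcr7+/+) brains labelled PND0, the day of birth. All animals were of strain C57BL/6J, the labels list no treatment, and each library came from the whole brain. They do not name litters, and they do not describe how the null allele was made. Libraries are called WT1 to WT4 and KO1 to KO4 after the numbers in their labels. All 55291 gene symbols in the count table were considered, and 17420 had enough counts to be tested. Levels are given in CPM (the count scaled to a common library total), which compare 1 gene between libraries but not different genes with each other. Because p-values rest on the spread between 4 libraries a group, whose litters are not named, part of that spread may be technical.

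Dhcr7 encodes 7-dehydrocholesterol reductase, which turns 7-dehydrocholesterol into cholesterol, and inherited loss of it causes Smith-Lemli-Opitz syndrome. The fetal brain makes most of its own cholesterol. When sterols run low in a cell, the transcription factor SREBP-2 is released and turns on the genes of the synthesis pathway. When oxysterols or certain sterol intermediates accumulate, the liver X receptors (LXR) turn on sterol export genes. Cholesterol is also attached to Hedgehog ligands and acts on their signal transducer Smoothened, so sterol defects have long been studied together with Hedgehog signalling.

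Library totals ran from 16221200 to 20742489 counts, so that 3 counts, the level below which a gene was treated as not detected, equalled 0.1446 to 0.1849 CPM. That limit covers counting error only. The biological coefficient of variation between libraries of 1 genotype was 16.59%. Y-linked Ddx3y passed 1 CPM in 2 libraries of each genotype. The samples expressed neuronal markers at summed levels of 6203 to 7000.1 CPM in WT and 6603.8 to 7101.8 CPM in KO. Some libraries stood apart in tissue content. WT4 held 74 counts of 16 Hox genes, which mark the caudal hindbrain and spinal cord, where WT1, WT2 and WT3 held 1, 3 and 13 and KO1 to KO4 held 0, 1, 5 and 4. Summed markers of red blood cells were 2188 CPM in KO3, 597.3 in KO4 and 528.3 in KO1, against 223.1 in KO2 and 188.5 to 254 in WT. Their part in the differences below was not tested beyond leaving out each library. In bulk tissue, fewer cells of a type and less RNA per cell cannot be told apart.

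The transcript of the targeted gene was reduced in every KO library. Dhcr7 (chr7:143823145-143848410, GRCm38) measured 94.0, 93.3, 98.2 and 58.6 CPM in WT1 to WT4 and 14.7, 11.1, 15.2 and 14.4 CPM in KO1 to KO4. WT4 was the lowest of the WT libraries but still lay far above all KO libraries. The KO mean of 13.9 ± 1.8 CPM (SD, n = 4) was 16.1% of the WT mean of 86.0 ± 18.4 CPM (log2 fold change -2.63, SE 0.16, edgeR adjusted p 5.6e-06). Acte1, an actin gene annotated 3′ of Dhcr7 at chr7:143866838-143900046, had 89, 62, 87 and 50 counts in KO1 to KO4 and none in any WT library. With the WT libraries together set at 3 counts, its KO level was at least 96.67-fold higher. Of 121 tested genes within 10 Mb of Dhcr7, Acte1 was the only other one called in either fit.

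Before correction for transcript length, 250 of 17420 genes (1.44%) passed an adjusted p of 0.05, of which 70 (0.402%) were higher and 180 (1.03%) lower in KO. The calls were uneven along transcript length. Transcripts up to 1000 nt were mostly higher when called, with 14 genes higher and 1 lower among 1447. The long end was the mirror image, with 1 gene higher and 66 lower among 928 genes over 8000 nt, where 7.22% were called. The trend ran through all genes and not only the called ones, since the median log2 fold change was 0.14 in the shortest class, 0.03 at 2001 to 4000 nt and -0.17 in the longest. Across 17262 genes, which are not independent replicates, Spearman's rho between log2 fold change and length was -0.34.

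**Figure D1:**
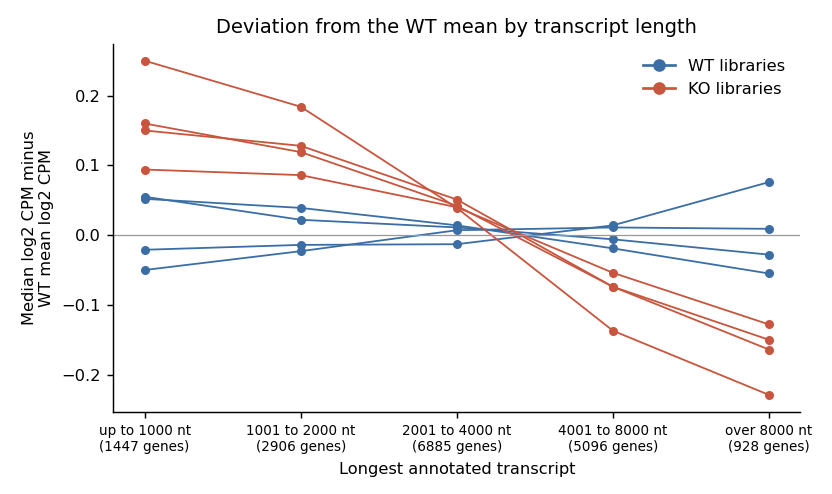
Each line is 1 library (blue WT, red KO), and the y axis gives the median over genes of log2 CPM minus the WT mean log2 CPM, in 5 classes of the longest annotated transcript. The 4 KO lines lie above all WT lines up to 2000 nt and below them over 4000 nt, with KO3 at the extremes (0.25 and -0.23).

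The same trend was measured library by library as the slope of log2 CPM on log2 transcript length, taken relative to the mean of the 8 libraries over 15760 genes of at least 1 CPM. The slopes were 0.0659, 0.016, 0.0651 and 0.023 per doubling of length in WT1 to WT4, and -0.0355, -0.0428, -0.0757 and -0.016 in KO1 to KO4. Every WT slope was positive and every KO slope negative. The difference of the means was -0.085 (exact permutation test, two-sided, p = 0.02857, the smallest that 70 arrangements of 4 against 4 allow). Among quantities that differ between the libraries, the share of counts on the ribosomal RNA gene CT010467.1 was 1.799 to 2.785% in WT and 1.157 to 2.088% in KO. Whether the slope reflects the brains or the RNA and library preparation cannot be told apart in this design.

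To separate genes that moved with the trend from genes that moved beyond it, the fit was repeated with offsets that remove each library's smooth dependence on length. It left 47 of 17262 genes (0.272%), of which 17 (0.0985%) were higher and 30 (0.174%) lower in KO. Of these, 44 were also called without the correction, 14 higher and 30 lower, and are referred to as surviving. The other 206 first calls, 56 higher and 150 lower, were not called with the offsets. A set of 3 genes was called only with them. Unadjusted p-values under 0.05 numbered 3130 (18.0%) without and 2376 (13.8%) with the offsets. Non-overlap of the 2 genotypes was common, at 12.3% of 15872 genes of at least 1 CPM, so separation of the groups alone did not distinguish a called gene. Every gene called in either fit had groups that did not overlap. Where non-overlap is given for a called gene below, it describes the values and adds no evidence to the call.

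The surviving and lost genes differed in length, as the correction implies. Lost higher genes had a median longest transcript of 1784 nt and lost lower genes one of 7442.5 nt, against 3182 nt over tested genes. Surviving higher and lower genes had medians of 4640.5 and 5150.5 nt. All 206 lost genes kept their direction. Their median log2 fold change went from 0.46 to 0.36 for the higher and from -0.48 to -0.32 for the lower ones. Of the lost genes, 24 of the 56 higher and 40 of the 150 lower still had an edgeR adjusted p under 0.1 with the offsets, so that many lay just past the threshold. Most surviving changes were modest, since 19 of the 30 lower and 13 of the 14 higher genes changed by less than 2-fold.

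**Figure D2:**
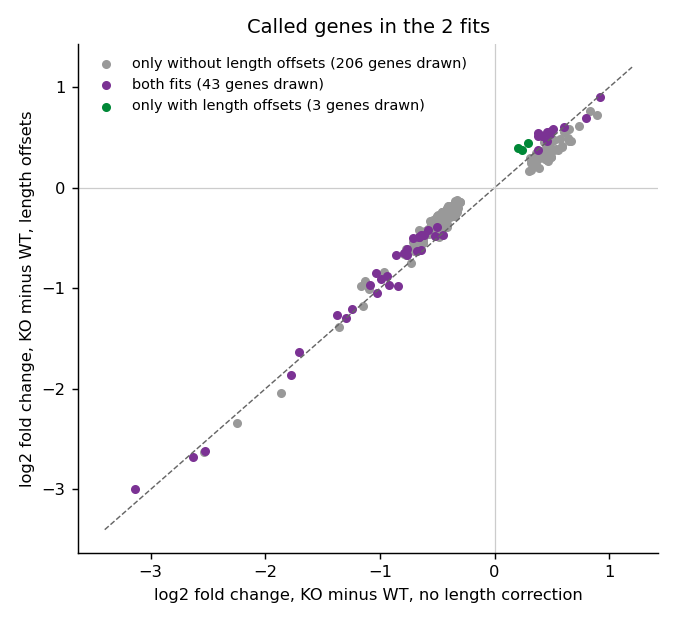
Each point is a called gene, with its log2 fold change (KO minus WT) without length correction on the x axis and with length offsets on the y axis. Acte1 lies outside the range and is not drawn, and the dashed line marks equal values. Most lost genes (grey) lie at small changes shifted towards 0, and they run from -2.53 to 0.898 on the x axis. Surviving genes (purple) run from -3.14 to 0.92 there.

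Enzymes of cholesterol synthesis were among the genes called higher in KO, and 1 of them survived the length correction. All 20 tested members had a positive log2 fold change in both fits, and 4 of the 20 were called without correction (against 0.402% called higher over all genes), namely Mvd, Acat2, Tm7sf2 and Nsdhl. The list median was 0.36 without and 0.30 with the offsets, beside medians of -0.001 and -0.005 over all tested genes. The promoters of 3 of these genes are shown because the pathway's genes are controlled together through short elements near the start site. They are RefSeq sequences on GRCm38.p6 from 250 bases before to 50 after the start, 5′ to 3′ on the gene's strand. Capitals mark a CCAAT box and the sterol element TCACNCCAC, each searched on both strands. Hmgcs1 lies at chr13:119690101-119690400 (plus strand), Mvd at chr8:122443373-122443672 (minus strand) and Nsdhl at chrX:72918271-72918570 (plus strand).
Hmgcs1: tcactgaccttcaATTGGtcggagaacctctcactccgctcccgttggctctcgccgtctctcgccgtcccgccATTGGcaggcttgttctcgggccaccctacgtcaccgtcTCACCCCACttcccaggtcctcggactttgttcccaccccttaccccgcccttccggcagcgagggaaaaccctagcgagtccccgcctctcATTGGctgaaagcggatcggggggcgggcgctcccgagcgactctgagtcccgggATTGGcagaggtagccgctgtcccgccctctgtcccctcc
Mvd: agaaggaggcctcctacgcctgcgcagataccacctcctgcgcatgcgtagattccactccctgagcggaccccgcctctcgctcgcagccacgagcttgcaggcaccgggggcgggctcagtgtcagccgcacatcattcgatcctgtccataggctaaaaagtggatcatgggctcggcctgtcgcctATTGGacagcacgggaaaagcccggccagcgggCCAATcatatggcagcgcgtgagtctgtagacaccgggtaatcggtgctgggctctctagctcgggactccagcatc
Nsdhl: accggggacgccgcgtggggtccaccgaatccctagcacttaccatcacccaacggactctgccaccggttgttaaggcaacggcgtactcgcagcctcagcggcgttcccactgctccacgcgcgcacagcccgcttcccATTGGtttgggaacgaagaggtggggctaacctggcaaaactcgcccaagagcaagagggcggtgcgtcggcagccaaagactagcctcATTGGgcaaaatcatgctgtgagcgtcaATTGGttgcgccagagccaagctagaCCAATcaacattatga

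Promoters were found for 15 of the 20 genes (16 promoters). A CCAAT box, bound by the factor NF-Y that works with SREBP-2, was in 14 of them (87.5%), against 37.4% of 32851 promoters in the table. GC boxes, searched as GGGCGG on both strands, were in 87.5%, against 35.7% of all, and they were also common in the promoters of surviving (70.7%) and lost genes (67.5%), of the SREBP-2 list (72.7%) and of the Hedgehog list (63.6%). The sterol element in this strict form was in 1 (6.25%), that of Hmgcs1, against 1.24% of all. Among surviving genes of every kind the CCAAT box was in 46.3% of 41 promoters, and among lost genes in 32.5% of 209.

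Mvd, the mevalonate pyrophosphate decarboxylase, was the sterol enzyme that passed both fits. It measured 43.3, 53.2, 46.7 and 32.1 CPM in WT1 to WT4 and 83.6, 68.7, 75.8 and 75.7 CPM in KO1 to KO4. All 4 KO libraries lay above all WT libraries. Its log2 fold change was 0.80 (SE 0.13, edgeR adjusted p 0.0111) and 0.70 with the offsets (edgeR adjusted p 0.0318). With the offsets the call was lost without WT1, WT3, KO1, KO2 or KO4 (edgeR adjusted p 0.0568 to 0.116), and its size then stayed between 0.65 and 0.74. Offsets for length and GC content also ended it (0.60, edgeR adjusted p 0.0725), and with the ribosomal RNA share as a covariate the log2 fold change was 0.43 (SE 0.15).

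Nsdhl, a dehydrogenase that removes a C4 methyl group, measured 44.8, 45.5, 49.5 and 31.8 CPM in WT and 64.8, 60.3, 59.1 and 70.1 CPM in KO. The genotypes did not overlap, and the log2 fold change of 0.57 became 0.49 with the offsets (edgeR adjusted p 0.109). Tm7sf2, a sterol C14 reductase, measured 49.7, 52.3, 52.9 and 39.0 CPM in WT and 70.4, 64.7, 75.3 and 65.4 CPM in KO. The log2 fold change barely moved, from 0.51 to 0.48, while the edgeR adjusted p went from 0.0270 to 0.0710. Acat2, the cytosolic thiolase that starts the pathway, had log2 fold changes of 0.48 and 0.40 (edgeR adjusted p 0.0399 and 0.131). Their transcripts of 2168 to 3083 nt are near or below the median length, so the correction lowered each estimate. Without the offsets the calls already leaned on single libraries, since 6, 4 and 7 of the 8 leave-one-out fits did not call Nsdhl, Tm7sf2 and Acat2.

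The other 16 enzymes were called in neither fit. Hmgcs1, the HMG-CoA synthase, measured 724, 678, 768 and 453 CPM in WT and 871, 872, 869 and 918 CPM in KO (log2 fold change 0.43, edgeR adjusted p 0.120). The groups did not overlap, although WT4 widened the WT spread. Fdft1 and Sqle, which commit the pathway to sterols, had log2 fold changes of 0.53 and 0.44 (edgeR adjusted p 0.0686 and 0.0914). Sc5d, the desaturase that forms 7-dehydrocholesterol, had 0.11. In 9 of the 20 genes the KO libraries lay wholly above WT (5.83% of genes of at least 1 CPM did), and none lay wholly below (6.51%).

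The summed level of the 20 enzymes was 2615.8, 2608.1, 2785.2 and 1794.7 CPM in WT1 to WT4 and 3176.8, 3088.6, 2918.2 and 3373.4 in KO1 to KO4. KO lay above WT throughout, and WT4, the library with the Hox counts, was the lowest by a wide margin. Without WT4 the list median was 0.25, 19 of 20 genes were higher and 3 were called (1 with the offsets). Over the leave-one-out fits without the offsets 1 to 4 members were called, except without KO1, where edgeR called 0. With the offsets edgeR called 1 without WT2, WT4 or KO3, and 0 without WT1, WT3, KO1, KO2 or KO4. DESeq2 called 8 of the 20 in each fit, against 3.59% called higher without and 2.39% with the offsets among all genes to which it gave an adjusted p (8.33% and 3.98% in either direction). With edgeR 11 without and 12 with the offsets had an unadjusted p under 0.05, against 8.57% and 7.24% of all genes, counting those higher in KO.

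**Figure D3:**
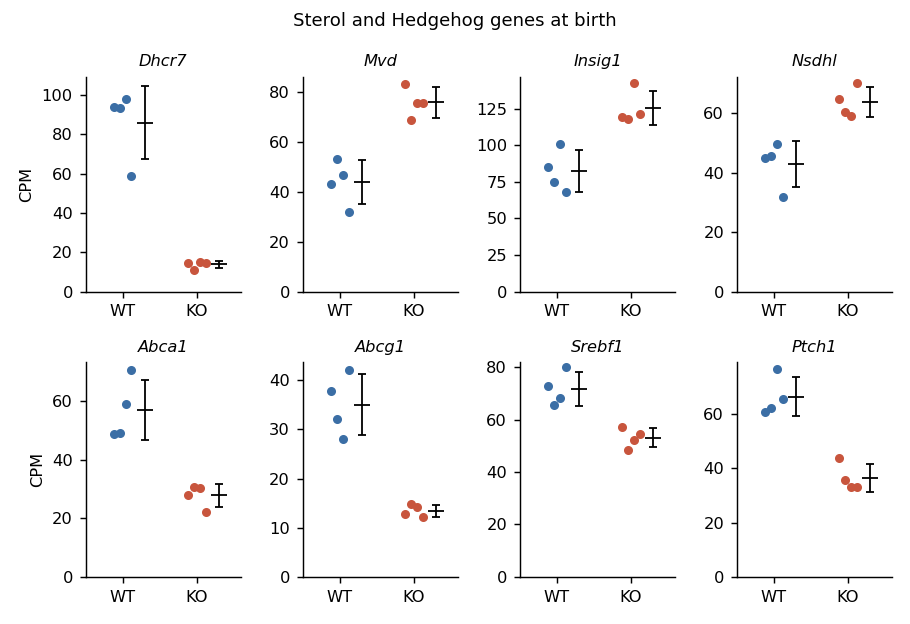
CPM of 8 genes in each library (points) with the mean and SD of 4 libraries beside them, WT in blue and KO in red. Dhcr7, Mvd, Abca1, Abcg1 and Ptch1 were called in both fits, Insig1, Nsdhl and Srebf1 only without the offsets. The genotypes do not overlap in any of the 8 panels.

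Of 11 genes that regulate SREBP-2 or act in sterol uptake and transport, 8 had a positive log2 fold change. Without the offsets 1 was called higher (0.402% over all genes), and with them 0. With the offsets 4 had an unadjusted p under 0.05, against 13.8% over all genes. DESeq2 then called 3, against 3.98% of the genes to which it gave an adjusted p. Insig1, which retains the SREBP-2 precursor in the endoplasmic reticulum and is itself a target, measured 85.4, 74.7, 101 and 68.0 CPM in WT and 119.5, 118, 143 and 122 CPM in KO. The groups did not overlap. Its call (edgeR adjusted p 0.0201) was lost with the offsets (0.0675), although the log2 fold change moved only from 0.61 to 0.56. Without the offsets it was also lost without WT1 or KO1 (up to 0.0630). Srebf2, the gene of SREBP-2, had 0.26 without and 0.35 with the offsets (edgeR adjusted p 0.127 and 0.0970). Npc2, a lysosomal carrier of cholesterol, had 0.40 with groups that did not overlap (edgeR adjusted p 0.0513). Scap, the sterol sensor that escorts SREBP-2, was nearly level at 0.008 (SE 0.073).

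The LXR list of 11 genes held the receptors Nr1h2 and Nr1h3 beside LXR targets. Of the 11 genes, 3 were called lower without the offsets (1.03% over all genes). Both sterol exporters among those 3 survived, which makes 2 of 11 with the offsets (0.174%). Abcg1, which exports sterols to lipoproteins, measured 37.7, 32.1, 28.0 and 42.1 CPM in WT1 to WT4 and 12.7, 14.8, 14.3 and 12.2 CPM in KO1 to KO4. Its KO mean of 13.5 ± 1.2 CPM was 38.6% of the WT mean of 35.0 ± 6.2 CPM (SD, n = 4). No KO library came near the WT range, and the call held with the offsets (log2 fold change -1.26, SE 0.14, edgeR adjusted p 0.000915) and in each leave-one-out fit. Abca1, its partner for lipid-poor apolipoproteins, measured 48.9, 49.2, 59.1 and 70.7 CPM in WT and 28.0, 30.7, 30.5 and 22.2 CPM in KO. The groups did not overlap, and WT4 was the highest. Its longest transcript has 10262 nt, so the offsets took the log2 fold change from -1.03 to -0.84 (edgeR adjusted p 0.00297 to 0.0213). With the offsets it was not called without WT3 (0.0948), WT4 (0.0536) or KO1 (0.0884).

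Srebf1, the SREBP-1 gene and a classical LXR target, measured 72.9, 65.6, 68.4 and 80.2 CPM in WT and 57.2, 48.4, 52.4 and 54.5 CPM in KO. All KO libraries lay below WT, and the call was lost with the offsets (edgeR adjusted p 0.0293 and 0.0781). It was not firm without them either, since it was lost without WT1, WT3, WT4, KO1 or KO2 (0.0556 to 0.1002). The change was not general to the list, since 6 of its 11 genes were higher, the receptors Nr1h2 and Nr1h3 among them. The list median was 0.06 without and -0.08 with the offsets, and the targets were not summarised without the receptors. Mylip and Lpcat3 had log2 fold changes of -0.25 and -0.29, and Apoe had 0.062 with overlapping groups. Lipid synthesis downstream was mixed. Scd1, the stearoyl-CoA desaturase, measured 83.3, 71.2, 88.8 and 76.8 CPM in WT and 61.7, 56.0, 56.0 and 61.3 CPM in KO and was called lower without the offsets only (0.0249, then 0.0781). That call was also lost without WT1, WT3, KO1 or KO2 (up to 0.0916). Fasn, the fatty acid synthase, was called higher only with the offsets. The 11 fatty acid synthesis genes had medians of 0.005 and 0.09.

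Among 15 genes of the Hedgehog pathway 1 was called lower (1.03% over all genes), and it survived (0.174% with the offsets). Ptch1, the Hedgehog receptor and a direct target of the pathway, measured 60.9, 62.5, 76.8 and 65.6 CPM in WT1 to WT4 and 44.0, 35.9, 33.2 and 33.0 CPM in KO1 to KO4. The lowest WT library lay above the highest KO library, KO1. The log2 fold change was -0.86 (SE 0.11, edgeR adjusted p 0.00248) and -0.67 with the offsets (0.0181). Its transcript is long, 10383 nt, and with the offsets the call was lost without WT3 (0.0871). Other targets of the pathway were not called. Gli1 measured 7.84, 7.76, 5.25 and 15.2 CPM in WT and 8.05, 6.45, 8.48 and 5.71 CPM in KO, and WT4 alone gave the high WT value. Hhip had a log2 fold change of -0.69 with overlapping groups. Smo, the signal transducer, had 0.23 (edgeR adjusted p 0.233). The list had no stable direction. Its median was -0.14 with 11 of 15 log2 fold changes negative, and with the offsets -0.10 with 9 negative, whereas without WT4 it was -0.06 and, with the offsets, 0.067. No Gli site, searched as TGGGTGGTC on both strands, was in the 11 promoters matched to the list, and 0.253% of all promoters held one.

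Among the 30 surviving lower genes Slc6a5, the glycine transporter of inhibitory nerve terminals, had the largest fall after the offsets. It measured 1.21, 1.64, 4.34 and 5.54 CPM in WT and 0.379, 0.501, 0.328 and 0.226 CPM in KO. The groups did not overlap, but the WT values spread widely and followed the hindbrain content in that WT4 and WT3 were highest in both. Its log2 fold change was -3.14 (SE 0.52, edgeR adjusted p 0.0120), and with the offsets the call was lost without WT3 (0.101), WT4 (0.0777), KO1 (0.0943), KO2 (0.0568) or KO4 (0.0605). Summed levels of the 4 glycinergic markers overlapped, at 111.9 to 130.8 CPM in WT and 96.18 to 115.6 in KO. Slc6a5 was at most 5.54 CPM of that sum, so the sum says little about it. All 3 tested markers had negative log2 fold changes. Glra1, too low to be tested, had 15 counts over the WT and 4 over the KO libraries.

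Syn3, a synapsin of the synaptic vesicle, measured 30.8, 26.7, 54.3 and 26.6 CPM in WT and 8.90, 13.5, 10.6 and 9.61 CPM in KO. WT3 was well above the other WT libraries, and all WT libraries were above all KO libraries. Its log2 fold change of -1.70 was -1.63 with the offsets (edgeR adjusted p 0.0205), and that call was lost without KO1 (0.0867), KO3 (0.0872) or KO4 (0.0602). An annotated exon of Syn3 shares 1733 nt with Timp3 on the opposite strand. Timp3, a metalloproteinase inhibitor, measured 61.7, 52.2, 76.2 and 64.2 CPM in WT and 41.7, 51.9, 68.4 and 29.6 CPM in KO, with overlapping groups (log2 fold change -0.41, edgeR adjusted p 0.4004). Reads of the shared stretch cannot be told apart unless counting used strand, which is not given in the sources used here.

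Gad2, the GABA-synthesising enzyme of nerve terminals, measured 122, 109.6, 118 and 115 CPM in WT and 80.9, 88.9, 77.0 and 81.2 CPM in KO. The genotypes were well separated and each was narrow (log2 fold change -0.50, then -0.39, edgeR adjusted p 0.00631 and 0.0270). It was the 1 called gene of the 8 GABA neuron genes in either fit (against 1.03% called lower without and 0.174% with the offsets over all genes), and 6 of the 8 had a positive log2 fold change (median 0.13). With the offsets its call was lost without WT1, WT3, WT4, KO1, KO2 or KO4 (0.0533 to 0.115). Erc1, a scaffold of the presynaptic active zone, measured 209, 195, 240.2 and 169 CPM in WT and 129, 142, 124 and 126 CPM in KO. Its groups did not overlap (log2 fold change -0.47 with the offsets, edgeR adjusted p 0.0328), and 6 of the 8 leave-one-out fits with the offsets did not call it. Slc38a1, a glutamine transporter of neurons, measured 281, 280.2, 317 and 301 CPM in WT and 202, 202, 168 and 197 CPM in KO. All KO libraries were lower, with KO3 the lowest (log2 fold change -0.47 with the offsets, edgeR adjusted p 0.0143). That call was lost without WT3 (edgeR adjusted p 0.05005).

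Map3k9, a mixed-lineage kinase upstream of JNK, measured 93.4, 77.2, 101 and 84.1 CPM in WT and 43.9, 49.9, 51.9 and 39.7 CPM in KO. Every KO library lay well below every WT library, and the log2 fold change of -0.94 was little altered at -0.88 (SE 0.11, edgeR adjusted p 0.00227). Mtor, the growth and nutrient kinase, measured 141, 141, 155 and 139 CPM in WT and 94.5, 100, 83.1 and 87.0 CPM in KO. The WT libraries were tightly grouped and all above KO (log2 fold change -0.66, then -0.49, edgeR adjusted p 0.0131). Sik2, a salt-inducible kinase, Ksr2, a scaffold of the Ras to ERK cascade, and Lmtk2, a membrane kinase, had -0.67, -0.50 and -0.42 with the offsets. Garem1, an adaptor of growth factor receptors, had -0.91. With the offsets Mtor lost its call without WT3, and 3, 8, 5 and 4 of the 8 leave-one-out fits did not call Sik2, Ksr2, Lmtk2 and Garem1. The transcripts of these 6 genes, of 4564 to 13125 nt, are all longer than the median gene, and each estimate moved towards 0 under the correction.

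Slc16a14, a member of the monocarboxylate transporter family, measured 12.3, 14.3, 17.9 and 15.3 CPM in WT and 7.72, 8.70, 6.84 and 6.05 CPM in KO. No library overlapped (log2 fold change -1.05 with the offsets). Zfp382, a KRAB zinc finger repressor, measured 4.83, 4.06, 10.3 and 4.32 CPM in WT and 1.75, 1.75, 1.31 and 2.03 CPM in KO. WT3 was far above the other WT libraries, which still lay above KO (log2 fold change -1.87). The uncharacterised 4931406P16Rik measured 42.0, 45.4, 49.4 and 44.0 CPM in WT and 19.5, 25.3, 23.9 and 16.4 CPM in KO. Its groups were well separated (log2 fold change -0.96, edgeR adjusted p 0.00775), and 2531 nt of one of its exons are shared with Gm12758 on the opposite strand. With the offsets, Fstl4 had -1.20, Ubap1l -0.98, Amotl1 and Jcad, proteins of cell junctions, -0.49 and -0.65, Soga1 -0.61, Prepl -0.47, Serac1 -0.62 and Jmjd4 -0.62. The non-coding or unnamed models Gm16853, Gm43481 and Gm43951 had -2.62, -1.30 and -0.96. Gm16853 lay under 2.3 CPM in all libraries, the lowest level among them. Zfp382, Ubap1l and Prepl have shorter or mid-length transcripts (1380 to 3255 nt), and for these the correction made the fall larger. With the offsets, the call was lost for Slc16a14 without WT3 (0.0921), WT4 (0.0530) or KO1 (0.0678) and for Zfp382 without WT3 (0.0948), KO1 (0.0929) or KO2 (0.0669). Most of the others were less stable. Of the 8 leave-one-out fits with the offsets, 8 did not call Serac1, 7 Fstl4, and 6 each Jmjd4, Prepl and Gm43951. Gm16853 was not called in 5, Ubap1l, Amotl1 and Jcad in 4, Soga1 in 3 and Gm43481 in 1. Of the genes in this paragraph, only 4931406P16Rik kept its call in each.

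Apart from Acte1, surviving higher genes changed by less than 2-fold, and most have transcripts longer than the median, so that they moved against the trend. Arhgap33, a RhoGAP that acts in dendritic spines, measured 479, 545, 437 and 523 CPM in WT and 670.3, 699, 718 and 693 CPM in KO. The groups were clearly apart (log2 fold change 0.49, then 0.53, edgeR adjusted p 0.00726 and 0.0121). It kept its call in both fits whichever library was left out. Cic, a transcriptional repressor that ERK signalling relieves, measured 437, 461, 359 and 431 CPM in WT and 529, 546, 571 and 555 CPM in KO. The KO libraries were tightly grouped above WT, and the offsets raised the log2 fold change from 0.38 to 0.54 (edgeR adjusted p 0.0205). Nfix, a transcription factor of neural and glial differentiation, measured 688, 691, 629.7 and 675 CPM in WT and 794, 848, 861 and 1083 CPM in KO. KO4 was the highest and no library overlapped (log2 fold change 0.52, edgeR adjusted p 0.0205). With the offsets, Cic was lost without WT1 (0.0541), WT4 (0.0530) or KO1 (0.0672), and Nfix without WT1 (0.0637), WT3 (0.0948) or WT4 (0.0590).

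With the offsets, Hdac5, a class II histone deacetylase, had a log2 fold change of 0.55, Fubp1, a DNA-binding regulator of Myc, 0.53, Mical2, an actin-oxidising enzyme, 0.52, Septin5, a septin of nerve terminals, 0.46, Ppp1r18, a phosphatase regulator on actin, 0.60, and Kcp, a secreted modulator of BMP signalling, 0.57. Their edgeR adjusted p-values ran from 0.0205 to 0.0396, and most calls leaned on single libraries. Of the 8 leave-one-out fits with the offsets, 6 did not call Hdac5, 4 Fubp1, 3 Mical2, 4 Septin5, 6 Ppp1r18 and 7 Kcp. The RIKEN models 2700081O15Rik and 4931428F04Rik had 0.59 and 0.38, and 4 and 5 of those fits did not call them. Mmp9, the gelatinase B gene, measured 13.3, 13.9, 13.0 and 11.1 CPM in WT and 18.6, 22.7, 32.3 and 23.7 CPM in KO. The WT values were narrow and KO3, the library with most red cell transcripts, was the highest KO value (log2 fold change 0.90 with the offsets, edgeR adjusted p 0.0273). That call was lost without WT1 (0.0832), WT3 (0.101), WT4 (0.0917) or KO2 (0.0597). Mmp9 was the 1 edgeR-called gene of 11 tested metalloproteinases and inhibitors in each fit. Over all genes 0.402% were called higher without and 0.0985% with the offsets. At an unadjusted p under 0.05 there were 4 without and 5 with the offsets, against 18.0% and 13.8% over all genes. DESeq2 called 2 in each fit, against 8.33% and 3.98% of the genes to which it gave an adjusted p. Neutrophils, osteoclasts and microglia can also express Mmp9. Their part in the Mmp9 level was not tested, and their summed markers overlapped between genotypes, at 1.091 to 12 CPM in WT and 2.441 to 4.405 in KO for neutrophils (Elane at 0 in every library), 11.46 to 16.49 and 5.877 to 14.17 for osteoclasts, and 69.1 to 88.31 and 70.4 to 95.12 for microglia.

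**Figure D4:**
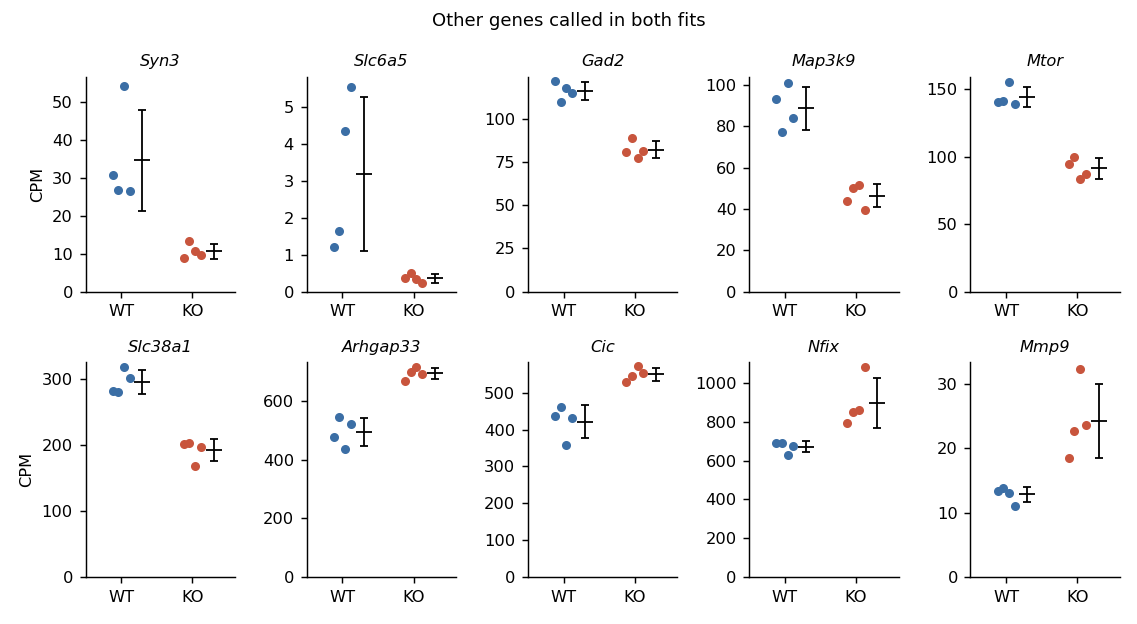
CPM in each library (points) with mean and SD of 4 libraries beside them for 10 further genes called in both fits, WT in blue and KO in red. Syn3 and Slc6a5 show wide WT spreads, Mtor and Gad2 narrow ones, and the genotypes do not overlap in any panel.

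The 3 genes called only with the offsets were higher in KO and have long transcripts. Fasn measured 1204, 1167, 1180 and 1160 CPM in WT and 1349, 1342, 1274 and 1475 CPM in KO. The KO libraries lay above WT by a small step, and the log2 fold change was 0.21 without and 0.39 with the offsets (edgeR adjusted p 0.0994 and 0.0185). Its longest transcript has 10050 nt. Cacna1h, a T-type calcium channel, measured 314, 295, 260.1 and 299.9 CPM in WT and 332, 341, 366 and 389 CPM in KO. Here too no library overlapped (log2 fold change 0.45, edgeR adjusted p 0.0328). Hip1r, an endocytic adaptor, had 0.37 (0.0428), with 918 nt of an exon shared with Vps37b on the opposite strand. With the offsets each was lost in some leave-one-out fits, Fasn without WT3 or KO1 (0.0614 and 0.0696) and Hip1r in all but the fit without WT2 (0.0659 to 0.1785). The Hip1r call also depended on the form of the correction, as it was lost with union exon length (0.0736), a straight line in length (0.0564) and offsets for length and GC content (0.0734). Cacna1h was lost without WT1, WT3, WT4, KO1, KO2 or KO4 (0.0667 to 0.101) and with offsets for length and GC content (0.0909).

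The lost genes with the smallest p-values no longer passed the threshold with the offsets, but they kept their direction. On the lower side, Cyfip2, a regulator of actin at synapses, measured 383, 376, 416 and 388 CPM in WT and 289, 296, 285 and 282 CPM in KO. The groups were far apart relative to their spread, and yet the log2 fold change shrank from -0.44 to -0.31 (edgeR adjusted p 0.00631 and 0.0643). Trrap, a scaffold of histone acetyltransferases with a transcript of 12479 nt, measured 262, 277, 322 and 305 CPM in WT and 203, 218, 199 and 199 CPM in KO. It went from -0.51 to -0.30 (edgeR adjusted p 0.0904). Rad54l2, Sec16a, Uhrf1bp1 and Srgap3 went from -0.60, -0.55, -0.65 and -0.46 to -0.43, -0.38, -0.48 and -0.29. Those 6 transcripts run from 6659 to 12479 nt. All 6 have non-overlapping groups in CPM, but the naming rule required this and the offsets do not change CPM.

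On the higher side, Ddah2, an enzyme of methylarginine breakdown, measured 76.4, 86.7, 74.3 and 77.8 CPM in WT and 106, 107, 112 and 104 CPM in KO. Its groups did not overlap (log2 fold change 0.45, then 0.31, edgeR adjusted p 0.0134 and 0.0764). Rprm, a p53-induced cell cycle inhibitor, went from 0.46 to 0.33, and Rpl37a, a ribosomal protein gene, from 0.59 to 0.41. Gm9800, a 336 nt model, went from 0.67 to 0.47 and Rsrp1 from 0.49 to 0.46 (edgeR adjusted p 0.0991 and 0.0567). Insig1, given above, completes the 6 lost higher genes with the smallest p-values.

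Families of short transcripts shifted down under the correction. Of 80 tested cytosolic ribosomal protein genes, whose median transcript has 1100 nt, 79 had a positive log2 fold change without the offsets and 5 were called higher (Rpl37a, Rpl23a, Rplp1, Rpl21 and Rpl34), against 0.402% over all genes. At an unadjusted p under 0.05 there were 59, and DESeq2 called 28. For this and the next families, the share of all genes at an unadjusted p under 0.05 was 18.0% without and 13.8% with the offsets. DESeq2 called 8.33% and 3.98% of the genes to which it gave an adjusted p. With the offsets 63 were positive and the median went from 0.22 to 0.08. None was then called by edgeR, 22 had an unadjusted p under 0.05 and DESeq2 called 3. Their summed level was 15372.2 to 16665.8 CPM in WT and 17716.5 to 19422.4 CPM in KO, without overlap. Nuclear genes of the respiratory chain had 63 of 71 positive without and 48 with the offsets, and a median that went from 0.20 to 0.05. None was called by edgeR in either fit. Without the offsets 26 had an unadjusted p under 0.05 and DESeq2 called 4, and with them 8 and 0. The 12 tested mitochondrially encoded genes went against the trend. All 12 were lower although their transcripts are short, with medians of -0.33 and -0.51. None was called by edgeR (mt-Nd2 had the smallest p, adjusted p 0.1144), while 2 had an unadjusted p under 0.05 without and 7 with the offsets, and DESeq2 called 1 and 3. Their summed levels overlapped, at 18212.7 to 24726.3 CPM in WT and 14134.3 to 21171.2 CPM in KO.

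Families of long transcripts moved up under the correction. The 16 chromatin regulators, with a median of 9891 nt, had 13 members lower and a median of -0.21, which became -0.04. Without the offsets 9 had an unadjusted p under 0.05 and DESeq2 called 4, and with them 5 and 1. Over all genes 18.0% and 13.8% had such a p-value. DESeq2 called 8.33% and 3.98% of the genes to which it gave an adjusted p. Kmt2a, a histone H3 lysine 4 methyltransferase, measured 219.5, 235, 254 and 229.6 CPM in WT and 179, 165.4, 147 and 175 CPM in KO and was the 1 member called lower without the offsets (1.03% over all genes). Its groups did not overlap, but its log2 fold change went from -0.49 to -0.27 (edgeR adjusted p 0.0100 and 0.118). The 15 synaptic scaffold and adhesion genes had a median of 0.004 and then 0.17, with 8 and then 11 members higher. Without the offsets 7 had an unadjusted p under 0.05 and DESeq2 called 3, and with them 8 and 3, against the same shares over all genes. No member was called by edgeR with the offsets, and Nrxn3, a presynaptic neurexin, lost its call (-0.38 to -0.22, edgeR adjusted p 0.0325 and 0.218). Nrxn3 was the 1 member called without the offsets (1.03% called lower over all genes). That call was also lost without WT1, WT3, KO1, KO2 or KO4 (edgeR adjusted p 0.0596 to 0.114). The 52 clustered protocadherins had medians of -0.07 and -0.005 and no edgeR call. Without the offsets 8 had an unadjusted p under 0.05, against 18.0% over all genes. DESeq2 then called 2, against 8.33% of the genes to which it gave an adjusted p. Of 9 tested Wnt targets 1 was called, Znrf3, a feedback inhibitor of Wnt receptors. It was called lower only without the offsets (-0.55 to -0.42), against 1.03% over all genes. That call was also lost without WT1, WT3, WT4, KO1, KO2 or KO4 (edgeR adjusted p 0.0654 to 0.128).

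**Figure D5:**
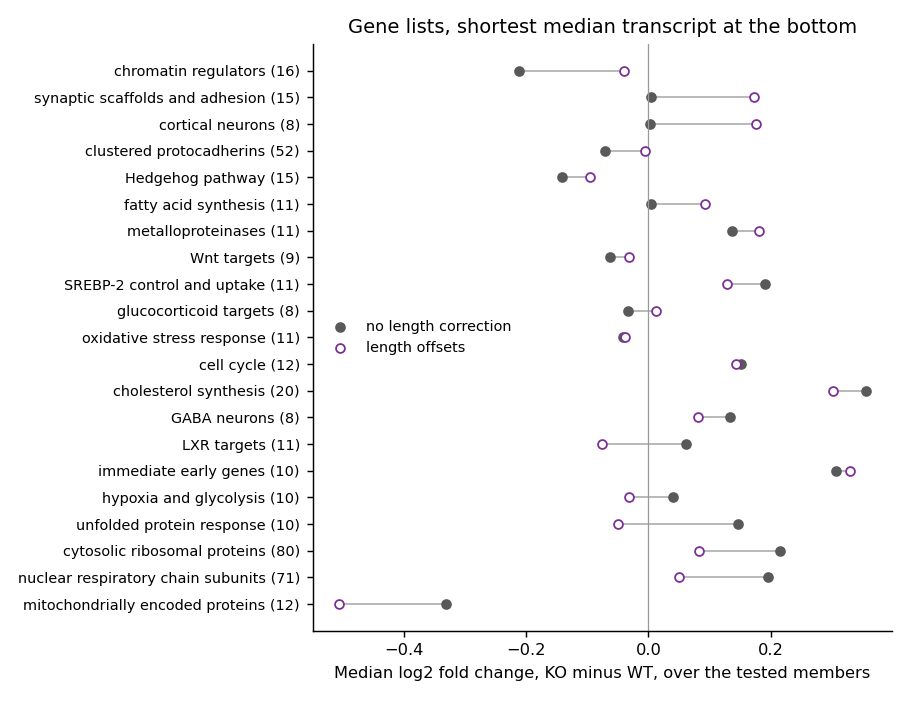
Median log2 fold change (KO minus WT) over the tested members (number in brackets) of each gene list, ordered by the lists' median transcript length, without length correction (filled) and with offsets (open). The lists with the shortest transcripts shift down and those with the longest shift up, and cholesterol synthesis stays near its value (0.36 and 0.30).

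In the lists for oxidative stress, the unfolded protein response, hypoxia and glycolysis, immediate early genes, glucocorticoid targets, the cell cycle and cortical neurons no member was called in either edgeR fit. Their smallest edgeR adjusted p-values without the offsets were 0.2124 (Sod1), 0.07329 (Atf4), 0.4663 (Pfkp), 0.237 (Nr4a1), 0.3105 (Per1), 0.08626 (Pcna) and 0.1228 (Fezf2). Over these lists 0 to 2 members had an unadjusted p under 0.05 in either fit, and DESeq2 called 1 gene each of the unfolded protein response and cell cycle lists without the offsets and 0 elsewhere. Over all genes 18.0% without and 13.8% with the offsets had such a p-value. DESeq2 called 8.33% and 3.98% of the genes to which it gave an adjusted p. The immediate early genes had a median of 0.31 with wide overlap of their summed levels (108.7 to 180 CPM in WT, 143.1 to 301.5 in KO). Lists of markers for other cells, used as checks of tissue content, had no edgeR-called member other than Slc6a5. The smallest p among the red blood cell genes was that of Slc4a1 (edgeR adjusted p 0.2047), with 5 of 6 at an unadjusted p under 0.05 and 4 called by DESeq2 without the offsets. Summed levels overlapped for astrocytes (678.7 to 847.6 CPM in WT, 650.4 to 885.3 in KO), endothelium (279.2 to 362.7 and 275.8 to 376.6), the oligodendrocyte lineage (349 to 388.7 and 318 to 360.3) and choroid plexus (314.6 to 599.7 and 591.3 to 963.3). For the oligodendrocyte lineage and choroid plexus, WT4 was the only WT library within the KO range. Without the offsets 6 of 8 oligodendrocyte lineage genes were lower (median log2 fold change -0.143, with the offsets -0.146). Of the 6 choroid plexus genes 5 were higher (median 0.316, with the offsets 0.252). The part of such content in the differences was not tested. The red blood cell genes had a median log2 fold change of 1.94, carried by KO1, KO3 and KO4.

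The calls as a whole leaned on single libraries. Without WT3, 35 genes were called without and 9 with the offsets, and 7 of the 44 surviving genes were among those called in both fits. The numbers of surviving genes called again in both fits were 24 without WT1, 36 without WT2, 14 without WT4, 11 without KO1, 19 without KO2, 34 without KO3 and 27 without KO4. The genes called in both fits whichever library was left out were Dhcr7, Acte1, Abcg1, Map3k9, Arhgap33 and 4931406P16Rik. Without the offsets 27 genes were called whichever library was left out, among them Abca1, Ptch1, Syn3, Gad2, Mtor, Slc38a1 and, of the lost genes, Cyfip2, Trrap and Kmt2a. With the ribosomal RNA share as a covariate 2 genes, Dhcr7 and Acte1, were called in each fit. The other 42 surviving genes kept their direction with that covariate and the offsets, at 61.1% (Mvd) to 111.6% (Ppp1r18) of their log2 fold change (median 89.4%). Their standard errors grew by a median factor of 1.47, and all 42 had an unadjusted p under 0.05. Their edgeR adjusted p-values in that fit ran from 0.3834 (Map3k9) to 0.8962. The 42 genes were chosen for small p-values in the same libraries. Neither the kept direction nor the unadjusted p-values are therefore separate support for them. Abcg1, for example, went from -1.26 to -1.07 (SE 0.21) and Ptch1 from -0.67 to -0.72 (SE 0.16). Offsets for length and GC content ended 10 surviving calls, those of Mvd, Nfix, Kcp, Ksr2, Ppp1r18, Prepl, Septin5, Serac1, Jmjd4 and 2700081O15Rik.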

How the data were processed

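Whole-brain RNA of 4 WT and 4 KO newborns was extracted, enriched for polyadenylated RNA and sequenced in pairs, per the labels' protocols. The authors deposited raw counts per gene symbol, and the submitters' processing notes name HISAT2, SAMtools, featureCounts, DESeq2 and mm10; their versions, the annotation and the strand setting are not given in the sources used here. Totals were 16221200 to 20742489 counts. Symbols were matched to GENCODE M21 (GRCm38) for length and position, 53180 by name and 395 by synonym. Counts were fitted with edgeR 4.0.16 (R 4.3.3, TMM scaling, filterByExpr with a count minimum of 10 and a total of 15, robust quasi-likelihood test, Benjamini-Hochberg adjusted p under 0.05). The 8 libraries of this stage entered the fit, with genotype as the only term. A second fit added per-library offsets from a loess curve (span 0.4) of log2 CPM deviation on log2 longest-transcript length, drawn from genes of at least 1 CPM without use of genotype; 158 tested symbols had no length. The curves absorb any genotype effect that varies smoothly with length. The code was tested on simulated data, which used the length curves estimated here and less spread than the real libraries. That run checks the code and not whether the correction suits these brains. CPM were computed from TMM-scaled totals.

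Genes are named by rule. It takes Dhcr7 and Acte1, then, where the mean is 1 CPM or more and the groups do not overlap, the 12 higher and 12 lower with the largest corrected change in both fits and the 6 and 6 with the smallest p lost under the correction, genes called only with it, and called list members, with sterol and Hedgehog genes by role. The other genes called in both fits that are named, and Timp3 for its overlap with Syn3, were added after their values were seen. The comparison and the lists were chosen with earlier results of these data known. Alternatives were RLE scaling, no count filter, DESeq2 1.42.0, leaving out each library, a replicate block, sex and ribosomal RNA covariates, and other length corrections. Promoters came from RefSeq on GRCm38.p6. A few genes that the rule or the lists hold are not reported here, but they remain in all counts, medians and sums.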

Additional observations from a re-analysis of the deposited data

Results flagged for a closer look

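A library was flagged when it lay far from the other 3 of its genotype relative to their range. Of 227 groups of 4 examined, 18 were flagged, and chance flags about 5% of groups. In WT4 the low values were Dhcr7 (58.56 CPM, others 93.29 to 98.17), Fdft1 (107.6, others 163.9 to 167.3), Sqle (144.2, others 213.1 to 223.1) and Msmo1 (64, others 98.26 to 103.8), all of cholesterol synthesis, and the summed microglia (69.1 CPM) and oligodendrocyte lineage markers (349 CPM). Insig2 was high there (32.44, others 26.85 to 27.59). WT4 is also the library with 74 Hox counts. In WT3, Syn3 (54.28, others 26.61 to 30.82), Zfp382 (10.34, others 4.061 to 4.826) and the summed neutrophil markers (12 CPM) were high.

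In KO3, the library with the most red blood cell transcripts, Insig1 (142.9 CPM, others 118 to 121.7) and Npc2 (96.6, others 75.26 to 78.66) were high, and Rdh11 (51.63), Gas1 (17.45, others 21.21 to 21.83) and Disp1 (10.23, others 14.58 to 14.83) were low. In KO4, Hmgcs1 (918.1 CPM, others 868.8 to 871.7) and 2700081O15Rik (514.4, others 427.5 to 436) were high. In KO1 the summed pituitary markers were high (3.363 CPM, others 1.252 to 1.526).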

How the results depend on the processing

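The counts of called genes depended on settings. Without the length correction, with it, and in both fits, 250, 47 and 44 genes were called, against 1091, 616 and 475 with no filter on low counts, 1001, 434 and 318 with DESeq2, and 2, 2 and 2 with the ribosomal RNA share as a covariate. Leaving out 1 library gave 35 (without WT3) to 263 (without WT2), 9 to 81 and 8 to 61, and the first count was also 62 without WT1, 38 without KO1 and 95 without KO2, the second 19 without WT4, 14 without KO1 and 27 without KO2, and the third 18 without WT4, 11 without KO1, 23 without KO2 and 29 without KO4. The labels' replicate numbers did not pair the libraries, as same-numbered libraries had correlations of -0.045, -0.058, 0.133 and -0.076 between their deviations, and the replicate block gave 356, 79 and 70. Counts stayed within 1.5 times with RLE scaling (255, 47 and 44), a sex-gene covariate (208, 42 and 39), union exon length (63 and 60), a straight line in length (61 and 57) and offsets for length and GC content (40 and 38). DESeq2 called 39 of the 44 surviving genes and the fit with GC offsets 34. The slope difference was -0.0655 with union exon length, -0.1219 over genes of at least 10 CPM and -0.0942 to -0.0721 without single libraries. Over the named genes and settings no call changed direction, and 348 fits lost and 100 gained a call. Many of the named genes were chosen for their change in the same libraries, so their kept direction is not separate support. With 4 libraries a group at 16221200 to 20742489 counts, changes of low genes rest on few counts.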

Other observations

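Chromosome 7, which carries Dhcr7, held 8 of the 47 genes called with length offsets (17%), against 7.99% of the genes tested in both fits and 5.34% of the 206 genes lost under the correction. The 8 include the targeted gene Dhcr7 itself and its neighbour Acte1, so part of the 17% comes from the targeted locus. These shares are descriptions with no test. By start position on GRCm38 the 8 genes are Cic (25267704), Zfp382 (30121942), Arhgap33 (30522226), 4931406P16Rik (34236707), Slc6a5 (49910146), Mical2 (112225856), Dhcr7 (143823145) and Acte1 (143866838). The first 4 lie near each other, far from Dhcr7. Zfp382 and 4931406P16Rik were lower in KO, and Cic and Arhgap33 were higher.

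Annotated exons of 18 of the 47 genes overlap an exon of another gene, 16 of them one on the opposite strand. The longest overlaps are those of 4931406P16Rik with Gm12758 (2531 nt), Septin5 with Gp1bb on the same strand (1902 nt), Syn3 with Timp3 (1733 nt), 4931428F04Rik with Nol3 (1531 nt) and Sik2 with Ppp2r1b (1429 nt). Levels of these genes may include reads of their partners.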
